A study of Oryza sativa Japonica Group and Oryza sativa Indica Group with 24 samples.

Results

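Aquaporins are the membrane channels that carry water and small uncharged solutes in plants, and 29 rice genes with such a name were followed here. They were found by symbol or synonym in the RefSeq gene table, as PIP, TIP, NIP or SIP followed by a subgroup and a member number. They comprised 11 PIP, 9 TIP, 7 NIP and 2 SIP genes. Of these, 25 had a probe set that the platform's annotation gives to that gene alone, with 31 probe sets in all out of 57381 on the array. PIP2-3, NIP1-2, NIP3-3 and TIP5-1 had none, and 2 further probe sets that the annotation gives to 2 genes each, 1 of them to both PIP2-1 and PIP2-5, were not used.

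The study measured rice crowns with their growing points (the tissue that contains the shoot apex) around panicle initiation, with 3 salt-stressed and 3 unstressed (control) samples in each of 4 sets, 1 array a sample. The groups were salt and control samples of a second and a first set labelled ir29 (title numbers 19 to 24 and 7 to 12), salt and control samples of agami, a salt-tolerant japonica by the series text, and salt and control samples of m103, a salt-sensitive japonica by the same text. It also names a tolerant indica, ir63731, which no title carries, so neither ir29-labelled set was given a tolerance class. The titles call the replicates biological. No source used here states separate plants, a salt dose or a duration, so p-values measure the spread between these samples.

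Plant aquaporins fall into families by the membrane they sit in and the solute they pass. PIPs lie in the plasma membrane, where the PIP2 group forms the more active water channels and PIP1 proteins often depend on PIP2 partners to reach the membrane. TIPs lie in the membrane of the vacuole, NIPs pass solutes such as silicic acid, boric acid and glycerol as well as water, and SIPs are a small group placed in the endoplasmic reticulum in Arabidopsis. Under salt, the flow of water into roots and growing cells is limited, and PIP and TIP transcripts are commonly studied as part of that response.

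Signals are the deposited probe set intensities after each array was brought to a trimmed mean of 500. They are compared between arrays, for 1 probe set or for the sum over a marker list, which mostly follows its brightest probe sets. Between probe sets, signals serve only to call some brighter or dimmer, which is no measure of transcript amount. A probe set was called when limma's moderated test on log2(signal + 16) gave a Benjamini-Hochberg adjusted p under 0.05 over the 34355 probe sets tested. Log2 changes are followed by their standard error (SE), come from 3 salt against 3 control arrays unless stated, and understate the change of dim probe sets. Of the 31 aquaporin probe sets, 30 (of 24 genes) passed the filter on dim signals. TIP1-2, at 3.5 to 95.9 over the 24 arrays, did not. Among 11 growing point markers (meristem and panicle regulators such as OSH1 and MADS15), 10 passed the filter, as did 6 of 6 root, 5 of 6 leaf and 4 of 9 seed markers. A marker can pass through its signal in some groups only. MADS15 read 518 to 846 in m103 control arrays, but 3.3 to 94.4 in the first ir29-labelled set. The signal at the 3' end of actin was 4.11 to 10.1 times that at its 5' end, a ratio that grows as RNA breaks down. In bulk tissue, fewer cells of a type and less RNA per cell cannot be told apart.

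With salt, single aquaporins of the PIP, TIP and NIP families changed, in different sets and in both directions. The brightest probe sets of 6 water channels with very bright signals had no call. In the second ir29-labelled set 1 of 30 probe sets rose (PIP1-3) and 1 fell (NIP2-1), which is 6.67%, against 8.83% of all probe sets tested (4.41% higher, 4.42% lower). In the first ir29-labelled set 1 rose (a PIP2-1 probe set) and 1 fell (PIP2-5), again 6.67%, against 5.8% of all (3.38% higher, 2.42% lower). None of the 30 was called in agami, where 0.934% of all probe sets were called (0.521% higher, 0.413% lower). In m103 3 rose (PIP2-4, PIP1-3, NIP2-2) and 3 fell (NIP2-1, TIP4-1, NIP1-1), which is 20%, against 8.85% of all (4.17% higher, 4.67% lower).

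The median log2 change of the 30 probe sets was 0.026 in the second ir29-labelled set, 0.12 in the first, 0.0089 in agami and 0.051 in m103. Over all probe sets it was -0.026, 0.0083, -0.0036 and 0.016 in the same order. Some genes known to respond to salt were called higher in each of the 4 sets. Of 5 tested genes known to respond to salt or abscisic acid (RAB21, RAB16B, RAB16C, salT and P5CS1), 2 were called higher in the second ir29-labelled set, 4 in the first, 3 in agami and 4 in m103. None was called lower. In agami salT still read lower, at 796, 657 and 789 in salt arrays against 1219, 997 and 1046 in control arrays. In m103 salT read 31910, 3747 and 905 in salt arrays, against 1992, 1070 and 1258 in control arrays. These genes were chosen with earlier results of these data known, so their calls are no independent check of the treatment. LEA3 and RAB16D, of the same list, did not pass the filter. Of the 24 aquaporin genes tested, 8 had a probe set called in at least 1 set, PIP1-3 and NIP2-1 in 2 sets each, and 15 were called neither in a set nor for the mean of the sets. The same counts were not made over all genes, so these have no background to be set against. The grid of salt changes shows the calls in full.

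**Figure D1:**
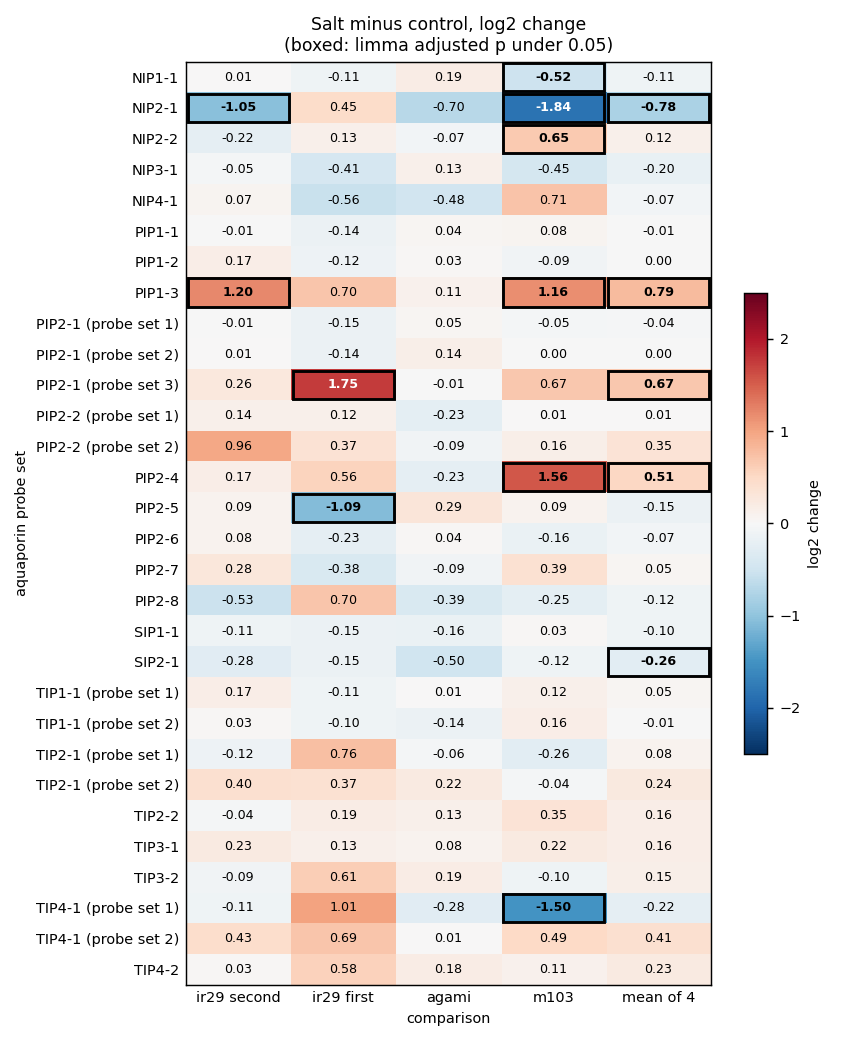
Log2 change, salt minus control, of the 30 aquaporin probe sets (rows) in each of the 4 sets and for the mean of the sets (columns). Colour and number give the change and boxes mark limma adjusted p under 0.05; agami has no box, and PIP1-3 and NIP2-1 are boxed in the second ir29-labelled set and in m103.

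PIP1-3, a plasma membrane water channel also known as RWC3, rose in both the second ir29-labelled set and m103. Its signals were 1134, 905 and 821 in salt arrays of the second ir29-labelled set, against 368, 605 and 288 in control arrays (log2 change 1.20, SE 0.23, limma adjusted p = 0.0026). In m103 they were 2147, 2066 and 1301 in salt arrays, against 1032, 628 and 769 in control arrays (1.16, SE 0.23, adjusted p = 0.0019). Salt and control arrays did not overlap in either set.

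In the first ir29-labelled set PIP1-3 signals were 1288, 1384 and 1929 in salt arrays, against 876, 1073 and 845 in control arrays (0.70, SE 0.23, adjusted p = 0.081). The groups did not overlap there, but the change did not pass the threshold. In agami they were 436, 473 and 480 in salt arrays and 437, 365 and 495 in control arrays (0.11, SE 0.23, adjusted p = 0.92), with the groups interleaved. The difference in PIP1-3 response between agami and m103 did not pass (-1.06, SE 0.33, adjusted p = 0.14), nor did that between the second and the first ir29-labelled set (0.51, SE 0.33, adjusted p = 0.44).

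The call of PIP1-3 in m103 held under all 14 alternatives, adjusted p at most 0.017. In the second ir29-labelled set it ended where the 6 arrays of that set were fitted alone (adjusted p = 0.062). The actin 3' to 5' ratio in that set was 6.77, 10.1 and 9.34 in salt arrays, against 4.11, 6.65 and 7.37 in control arrays. Its part in the result was not tested.

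PIP2-4, a plasma membrane channel of the PIP2 group, had the largest rise among aquaporins in m103. Its signals there were 4755, 5434 and 4159 in salt arrays, against 1688, 1872 and 1311 in control arrays (log2 change 1.56, SE 0.23, adjusted p = 1.1e-04). The lowest salt array was above the highest control array by more than the spread within either group. In agami its signals were 660, 575 and 493 in salt arrays and 719, 626 and 677 in control arrays (-0.23, SE 0.23, adjusted p = 0.77), and the groups overlapped.

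PIP2-4 was the aquaporin whose salt response differed between agami and m103, by -1.79 (SE 0.33, adjusted p = 0.0076), with 1.02% of all probe sets called in that comparison (0.527% higher, 0.489% lower). The difference held under all 20 alternatives, adjusted p at most 0.036. In the second ir29-labelled set PIP2-4 signals were 395, 181 and 277 in salt arrays and 261, 208 and 255 in control arrays (0.17, SE 0.23, adjusted p = 0.75). In the first they were 451, 588 and 959 in salt arrays and 470, 447 and 365 in control arrays (0.56, SE 0.23, adjusted p = 0.18). Neither ir29-labelled set separated its salt from its control arrays for this gene.

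PIP2-5 and PIP2-1 lie beside PIP2-4 in the genome, with 1 gene between PIP2-4 and PIP2-5 and none between PIP2-5 and PIP2-1 in the RefSeq gene table. PIP2-5 did not rise with PIP2-4 in m103, where its signals were 574, 482 and 348 in salt arrays and 499, 460 and 347 in control arrays (0.088, SE 0.26, adjusted p = 0.91). It fell in the first ir29-labelled set, to 244, 274 and 312 in salt arrays, against 698, 700 and 449 in control arrays (-1.09, SE 0.26, adjusted p = 0.011). All 3 salt arrays were below all 3 control arrays. The call ended without control replicate 1 or 2 of that set and with its 4 arrays that had been deposited unscaled (highest adjusted p = 0.12). PIP2-5 was at 0.089 in the second ir29-labelled set (SE 0.26, adjusted p = 0.90) and at 0.29 in agami (SE 0.26, adjusted p = 0.71).

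The 3 probe sets of PIP2-1, a plasma membrane water channel, disagreed. The third, whose identifier ends in S2_at, rose in the first ir29-labelled set, with signals of 303, 352 and 287 in salt arrays against 89.7, 87.5 and 68.9 in control arrays (1.75, SE 0.32, adjusted p = 0.0013). This was the largest rise of any aquaporin probe set in any set, and the groups were far apart. The brightest probe set of the same gene had 15950, 16540 and 15860 in salt arrays of that set against 17280, 17450 and 19140 in control arrays (-0.15, SE 0.085, adjusted p = 0.36). No source used here states which transcripts the dim probe set reads, so its rise is a value of that probe set and not of PIP2-1 as a whole.

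In the other sets the third PIP2-1 probe set was not called. It was at 0.26 in the second ir29-labelled set (SE 0.32, adjusted p = 0.71), at -0.014 in agami (SE 0.32, adjusted p = 0.99) and at 0.67 in m103 (SE 0.32, adjusted p = 0.23). In m103 all salt arrays, at 241, 145 and 125, were still above the control arrays, at 119, 79.8 and 95.1. The difference between the second and the first ir29-labelled set was -1.49 (SE 0.45, adjusted p = 0.067), which passed under 4 of 20 alternatives.

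TIP4-1, a channel of the vacuolar membrane, fell in m103. Its brighter probe set read 1648, 1456 and 842 in salt arrays of m103, against 4220, 3219 and 3430 in control arrays (-1.50, SE 0.31, adjusted p = 0.0025), with no overlap. The call held under all 14 alternatives, adjusted p at most 0.023. In the first ir29-labelled set it lay the other way, at 4841, 3450 and 3202 in salt arrays and 2171, 2148 and 1379 in control arrays, also with no overlap (1.01, SE 0.31, adjusted p = 0.052).

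That value in the first ir29-labelled set passed under 4 of 15 alternatives. These were quantile normalization (limma adjusted p = 0.046), a pseudocount of 64 (0.046), the arrays of that set fitted alone (0.014) and a replicate block (0.026). In the second ir29-labelled set TIP4-1 read 1883, 2936 and 2097 in salt arrays and 2833, 2271 and 2258 in control arrays (-0.11, SE 0.31, adjusted p = 0.90). In agami it read 1100, 901 and 1337 in salt arrays and 2699, 903 and 967 in control arrays (-0.28, SE 0.31, adjusted p = 0.79), and 1 control array was far above the other 5. Without that array, control replicate 1, the difference in salt response between agami and m103 passed (1.73, adjusted p = 0.0073), against 1.22 with it (SE 0.43, adjusted p = 0.22). The dimmer TIP4-1 probe set read 0.66 to 71.5 over all arrays and was not called in any set.

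NIP2-1, known as Lsi1, is the channel through which rice roots take up silicic acid. It fell in m103 to 204, 332 and 290 in salt arrays, against 1434, 828 and 854 in control arrays (-1.84, SE 0.28, adjusted p = 1.6e-04). In the second ir29-labelled set it fell to 106, 135 and 129 in salt arrays, against 267, 254 and 296 in control arrays (-1.05, SE 0.28, adjusted p = 0.022). Both sets separated salt from control arrays completely.

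The m103 call of NIP2-1 held under all 14 alternatives (adjusted p at most 0.0025). That in the second ir29-labelled set ended without control replicate 1 or 3, without salt replicate 1 or 2, and where its arrays were fitted alone (adjusted p 0.055 to 0.066). In agami NIP2-1 read 93.5, 184 and 111 in salt arrays and 151, 220 and 285 in control arrays (-0.70, SE 0.28, adjusted p = 0.29). In the first ir29-labelled set it read 240, 204 and 344 in salt arrays and 149, 147 and 276 in control arrays (0.45, SE 0.28, adjusted p = 0.44). The groups overlapped in both of these sets.

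The response of NIP2-1 differed between the second and the first ir29-labelled set, by -1.51 (SE 0.40, adjusted p = 0.038), where 3.51% of all probe sets were called (1.77% higher, 1.74% lower). This call was fragile: it ended under 13 of 20 alternatives, adjusted p 0.02 to 0.10. It ended, for instance, with quantile normalization (-1.27, adjusted p = 0.10), without the filter on dim probe sets (adjusted p = 0.058) and without each of the 6 arrays of the second set in turn.

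Lsi2, the exporter that works beside Lsi1 in root silicon uptake and is no aquaporin, was not called lower in any set. Its log2 change was 0.46 in the second ir29-labelled set (SE 0.18, adjusted p = 0.13), 0.58 in the first (adjusted p = 0.067), 0.60 in agami (adjusted p = 0.13) and 0.45 in m103 (adjusted p = 0.15), and it rose for the mean of the sets (0.52, SE 0.092, adjusted p = 2.9e-04). NRAMP5, a manganese and cadmium uptake transporter of roots, fell for the mean (-0.41, SE 0.097, adjusted p = 0.0041). It was at -0.56 in the second ir29-labelled set (adjusted p = 0.072), -0.42 in the first, -0.36 in agami and -0.30 in m103, with no call in a single set. Of the 6 root markers, Lsi2 and NRAMP5 among them, none was called in the second ir29-labelled set (median 0.09) or in m103 (median -0.23). Their summed signal was 1752 to 2071 in salt arrays of the second ir29-labelled set, against 2064 to 2887 in its control arrays. In m103 it was 2295 to 2748 in salt arrays, against 2615 to 2856 in control arrays. NRAMP5 was the largest part of these sums. In the second ir29-labelled set NRAMP5 read 988, 824 and 982 in salt arrays, against 1941, 1207 and 1116 in control arrays. The lowest single value of a root marker in m103 was 7.68, of the Casparian strip gene CASP1, under the filter's signal of about 27.9. The part of the root markers in the fall of NIP2-1 was not tested.

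NIP2-2, known as Lsi6, is the related silicon channel that unloads silicon from the xylem in leaves and nodes. It rose in m103, with 6941, 5647 and 4328 in salt arrays against 3583, 3833 and 3198 in control arrays (0.65, SE 0.16, adjusted p = 0.012). The groups did not overlap, and the salt arrays were spread more widely than the control arrays. The call ended without control replicate 3 (adjusted p = 0.067). It also ended without salt replicate 1, which was the 1 m103 array deposited scaled (adjusted p = 0.086). The suffix of its probe set marks probes that may match other transcripts too, as for 8 of the 31 aquaporin probe sets. NIP2-2 was not called in the second ir29-labelled set (-0.22), the first (0.13) or agami (-0.068), with SE 0.16 in each.

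NIP1-1 fell by a smaller amount in m103, to 8200, 7986 and 9871 in salt arrays, against 12710, 11150 and 13480 in control arrays (-0.52, SE 0.15, adjusted p = 0.028). The 2 groups did not overlap. The call ended under 6 of 14 alternatives, which were median centring, no intensity trend, and leaving out control replicate 1 or 3 or salt replicate 1 or 2 (adjusted p up to 0.13). In the other sets NIP1-1 was at 0.010 (second ir29-labelled), -0.11 (first) and 0.19 (agami), and no value passed. NIP3-1, a boron transporter, and NIP4-1 were dim, at 0.77 to 72.3 and 3.8 to 92.7, and neither was called.

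**Figure D2:**
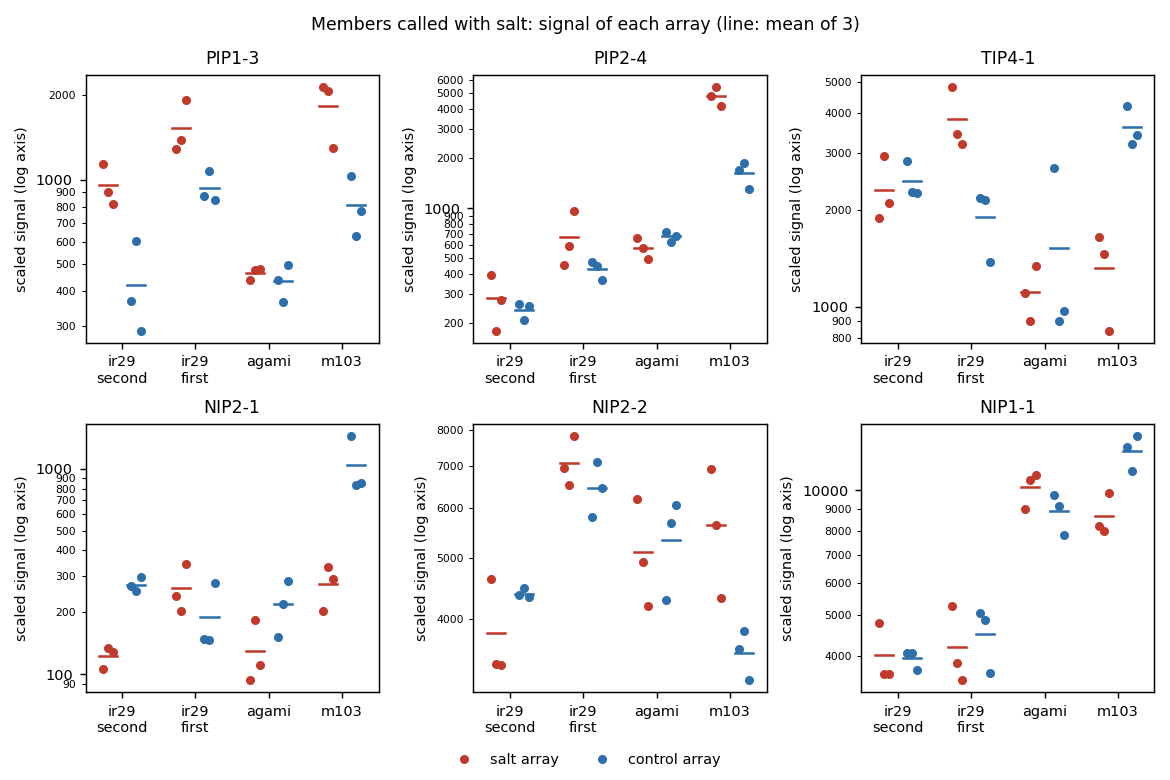
Scaled signal (log axis) of PIP1-3, PIP2-4, TIP4-1, NIP2-1, NIP2-2 and NIP1-1 in every array, with 3 salt arrays (red, left) and 3 control arrays (blue, right) in each set and lines at their means. The panels are the 6 probe sets called in m103. Salt and control arrays of m103 are apart in each, which the choice of panels favours. The PIP2-4 salt arrays of m103, at 4159 to 5434, lie above all other arrays of that panel.

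Averaged over the 4 sets with equal weight, PIP1-3 rose by 0.79 (SE 0.12, adjusted p = 3.4e-05), the third PIP2-1 probe set by 0.67 (SE 0.16, adjusted p = 0.0047) and PIP2-4 by 0.51 (SE 0.12, adjusted p = 0.0028). NIP2-1 fell by 0.78 (SE 0.14, adjusted p = 3.6e-04). These 4 calls held under all 32 alternatives each. SIP2-1, of the endoplasmic reticulum group, fell by 0.26 (SE 0.089, adjusted p = 0.042). Under 19 of 32 alternatives SIP2-1 was no longer called. The 5 called probe sets were 16.7% of 30, close to the 17.7% called among all probe sets (9.16% higher, 8.59% lower).

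SIP2-1 lay lower with salt by a small amount in each set. Its signals were 321, 268 and 337 in salt arrays and 442, 334 and 365 in control arrays of the second ir29-labelled set, and 292, 373 and 354 in salt arrays and 402, 386 and 341 in control arrays of the first. They were 145, 247 and 243 in salt arrays and 308, 318 and 272 in control arrays of agami, and 234, 252 and 253 in salt arrays and 296, 247 and 265 in control arrays of m103. Salt and control arrays were apart in agami and overlapped in the other sets, and SIP2-1 was called in none of them. SIP1-1 stayed between 2452 and 4069 in all arrays and was not called.

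The water channels PIP1-1, PIP1-2, PIP2-1, PIP2-6, TIP1-1 and TIP2-2 had very bright probe sets, and no salt change was called for the brightest of each. Whether signals this bright were near saturation was not tested. Their signals were between 14520 and 36350, and for each the highest of 24 arrays was 1.32 to 1.78 times the lowest. Log2 changes with salt ran from -0.23 to 0.35 over 24 comparisons. The nearest to a call was TIP2-2 in m103, at 26670, 24310 and 26170 in salt arrays against 17130, 21790 and 22120 in control arrays (0.35, SE 0.11, adjusted p = 0.055). The groups did not overlap there. In the first ir29-labelled set, salt arrays lay below control arrays without overlap for PIP1-2 (22910 to 24330 against 25140 to 26920). The same held there for PIP2-1 (15860 to 16540 against 17280 to 19140) and PIP2-6 (21790 to 24650 against 26110 to 28800). How often groups were apart over all probe sets was not counted. Of 18 comparisons between control arrays of different sets, 1 was called among these 6 probe sets, PIP2-6 in the second against the first ir29-labelled set (-0.36, SE 0.11, adjusted p = 0.026), and it was not called under 8 of 14 alternatives.

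**Figure D3:**
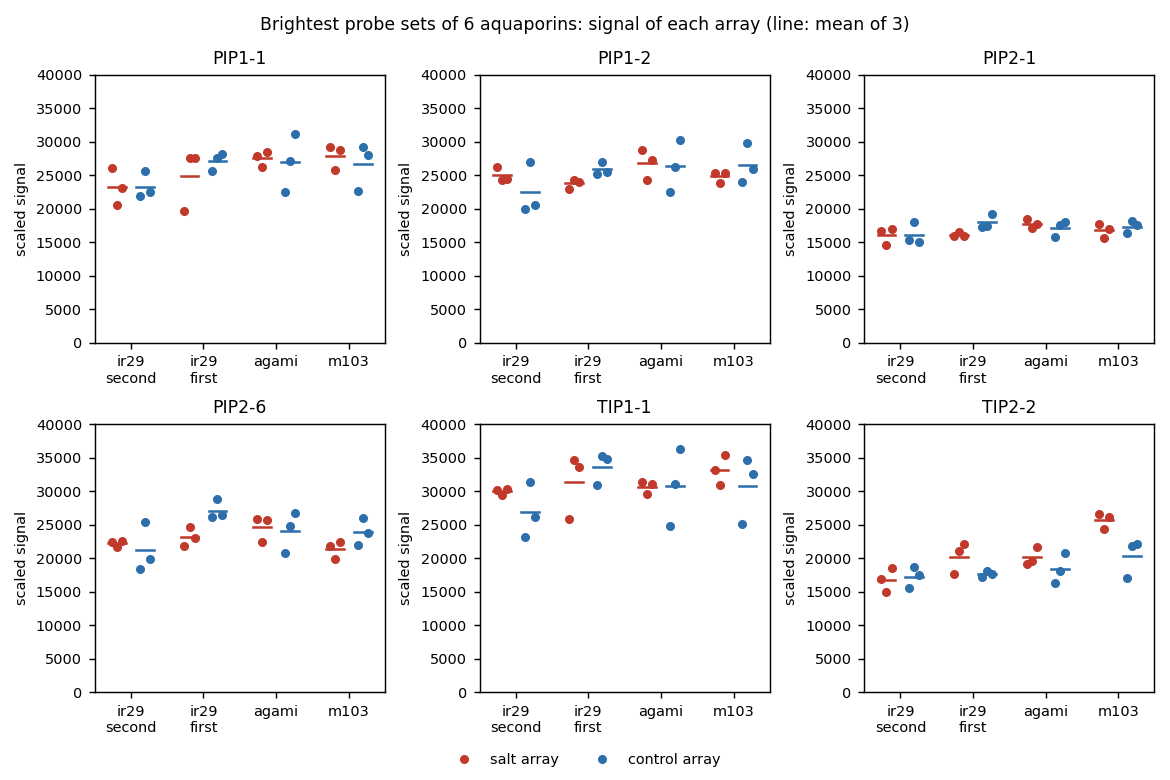
Scaled signal (linear axis from 0) of PIP1-1, PIP1-2, PIP2-1, PIP2-6, TIP1-1 and TIP2-2 in every array, with salt arrays in red on the left and control arrays in blue on the right in each set and lines at the means of 3. The points stay between 14520 and 36350, with no salt change called.

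Single aquaporins also differed between the control arrays of the sets. Between the ir29-labelled and the japonica sets 3 of 30 probe sets were higher and 8 lower, which is 36.7%. This was near the 32% of all probe sets (15.9% higher, 16.1% lower). Both PIP2-2 and both TIP2-1 probe sets were among the 8. Sequence differences between the cultivars at the probes and differences in transcript level cannot be told apart in that comparison. With median centring, the median of all probe sets moved to 0.12, against -0.00098, and 66.6% of all called probe sets were higher in place of 49.8%. The aquaporin split was then 5 higher and 8 lower. In the same contrast 3 of 5 leaf markers were higher and none lower (median 0.44), and 1 of 10 growing point markers was higher and 3 were lower, OSH1 most clearly (-1.61, SE 0.15, adjusted p = 3.9e-09). The summed signal of the leaf markers was 52590 to 65530 and 56810 to 63660 in control arrays of the second and first ir29-labelled sets, against 44400 to 45570 in agami and 59000 to 67920 in m103. Their part in the aquaporin differences was not tested.

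PIP2-4 was lower in the control arrays of the ir29-labelled sets, at 261, 208 and 255 (second) and 470, 447 and 365 (first), than in those of agami, at 719, 626 and 677, and m103, at 1688, 1872 and 1311 (-1.65, SE 0.16, adjusted p = 1.8e-08). NIP1-1 was also lower in the ir29-labelled sets, at 3635 to 5056 in their 6 control arrays, than in the japonica sets, at 7790 to 13480 (-1.32, SE 0.10, adjusted p = 4.2e-10). PIP2-7, a further plasma membrane channel, was higher there, at 587 to 1208, than in the japonica sets, at 219 to 509 (1.28, SE 0.14, adjusted p = 1.3e-07). The 6 ir29-labelled control arrays did not overlap with the 6 japonica ones for any of these 3 genes. Both PIP2-2 probe sets were lower in the ir29-labelled sets, by -0.53 (SE 0.14) for the brighter and -2.40 (SE 0.33) for the dimmer. For the brighter one m103 alone stood high, with control means of 3518 and 2696 in the second and first ir29-labelled sets, against 3211 in agami and 6212 in m103. The suffix of the brighter PIP2-2 probe set marks probes that may match other transcripts too.

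Between the 2 ir29-labelled sets 6 of 30 probe sets were lower in the second and none was higher, which is 20%, against 13.6% of all (6.81% higher, 6.79% lower). Both TIP2-1 probe sets were among the 6. With median centring, which moved the median of all probe sets to 0.10, against -0.014, and made 71.5% of all called probe sets higher in place of 50.1%, 3 were lower and 1 was higher. Of 6 root markers 3 were lower in the second set and none was higher (median -0.46), namely Lsi2 (-0.90), NRAMP5 (-0.91) and SCR1 (-0.56), with a summed signal of 2064 to 2887 in control arrays of the second set, against 3649 to 4304 in those of the first. Their part in the lower aquaporin signals was not tested.

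TIP2-1, a channel of the vacuolar membrane, differed most in signal between the ir29-labelled sets. Its brighter probe set read 77.2, 75.2 and 27.9 in control arrays of the second set, against 405, 365 and 414 in those of the first (-2.51, SE 0.26, adjusted p = 1.4e-07). Under salt it read 125, 57.3 and 66.2 in the second set and 552, 522 and 475 in the first. All 6 arrays of the second set were below all 18 other arrays, the lowest of which was at 248. The suffix of this probe set marks probes that may match other transcripts too. The ir29-labelled sets may be of different cultivars, as the series text names an indica that no title carries. Sequence differences at the probes and differences in transcript level then cannot be told apart, for TIP2-1 or for other aquaporins.

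The dimmer TIP2-1 probe set went the same way between the control arrays of the ir29-labelled sets (-1.82, SE 0.48, adjusted p = 0.011), a difference that did not pass without control replicate 3 of the first set or control replicate 1 or 3 of the second (adjusted p up to 0.071). Neither TIP2-1 probe set was called with salt. PIP1-3 was also lower in the control arrays of the second ir29-labelled set (-1.18, SE 0.23, adjusted p = 8.6e-04), the same arrays its salt rise there is measured against. Its salt arrays there, at 821 to 1134, were near the control arrays of the first set, at 845 to 1073.

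Between agami and m103 2 of 30 probe sets were higher in agami control arrays and 7 were lower, which is 30%, against 11.4% of all probe sets (5.35% higher, 6.05% lower). The count was 5 to 8 when 1 array was left out, and 5 without m103 control replicate 1 or agami control replicate 2 or 3. Of 5 leaf markers 3 were lower in agami and none was higher (median -0.82), namely rbcS (-2.27, SE 0.28, adjusted p = 2.1e-06), RCABP89 (-1.01) and rcaA1 (-0.82), and their summed signal was 44400 to 45570 in agami control arrays, against 59000 to 67920 in those of m103. Growing point markers had 2 of 10 higher and 2 lower, and root markers 1 of 6 higher and none lower. The part of these markers in the aquaporin differences was not tested. Between these cultivars too, sequence differences at the probes and differences in transcript level cannot be told apart.

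NIP2-1 differed most between agami and m103, at 151, 220 and 285 in agami control arrays against 1434, 828 and 854 in m103 control arrays (-2.16, SE 0.28, adjusted p = 6e-06). TIP4-1 (-1.42, SE 0.31, adjusted p = 0.0024), PIP2-4 (-1.24, SE 0.23, adjusted p = 5.9e-04), PIP2-2 (-0.99, SE 0.19, adjusted p = 8.4e-04 for the brighter probe set) and PIP1-3 (-0.86, SE 0.23, adjusted p = 0.014) were lower in agami as well. PIP1-3 did not pass without m103 control replicate 1 or agami control replicate 2 (adjusted p up to 0.10).

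NIP2-1 and TIP4-1, which fell with salt in m103, were thus high in its control arrays. The m103 salt arrays, at 204 to 332 for NIP2-1, lay within or just above the 147 to 296 seen in the control arrays of the other sets, and at 842 to 1648 for TIP4-1 overlapped with the 903 to 2833 seen there. PIP2-4 and PIP1-3 ran the other way, being higher in m103 than in agami without salt and rising further with it. These comparisons share the m103 control arrays with the salt comparison in m103. All 3 of those arrays were deposited unscaled and all agami arrays scaled, so that the scale of deposit and the cultivar overlap. With the scale of deposit as a block, NIP2-1 and TIP4-1 were still called in m103 with salt, and 6 of 30 probe sets, all lower, were called between agami and m103 control arrays.

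**Figure D4:**
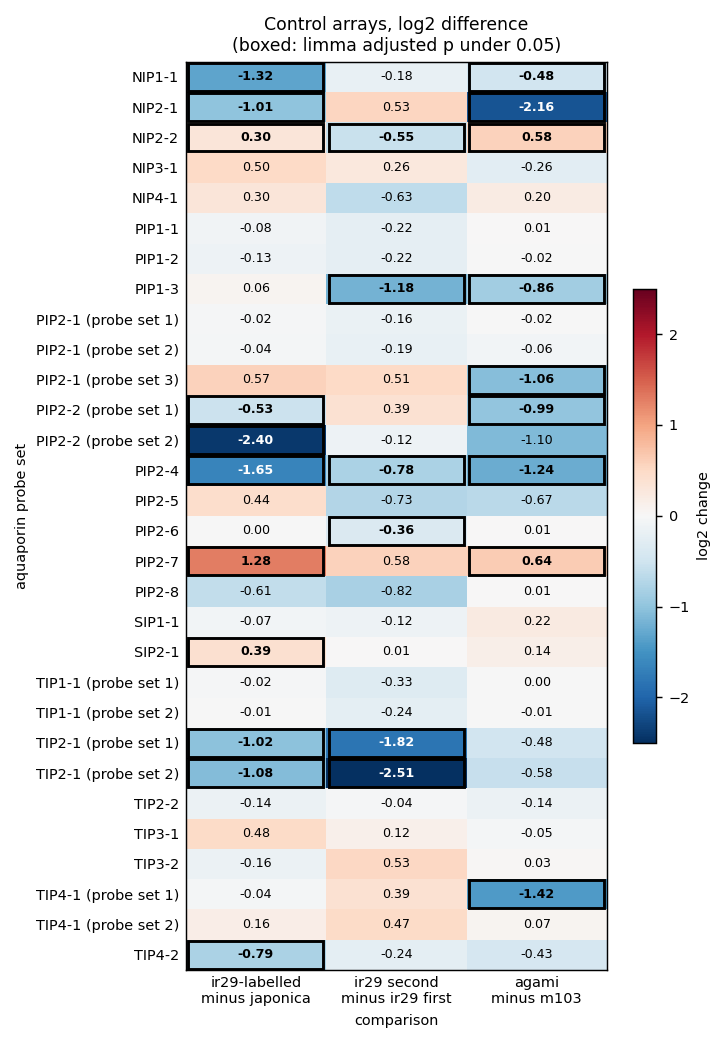
Log2 difference between control arrays of the 30 aquaporin probe sets (rows) for ir29-labelled minus japonica sets, second minus first ir29-labelled set and agami minus m103 (columns). Boxes mark limma adjusted p under 0.05, which holds for 11, 6 and 9 probe sets; TIP2-1 in the middle column (-2.51) and NIP2-1 in the right column (-2.16) lie far below 0.

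**Figure D5:**
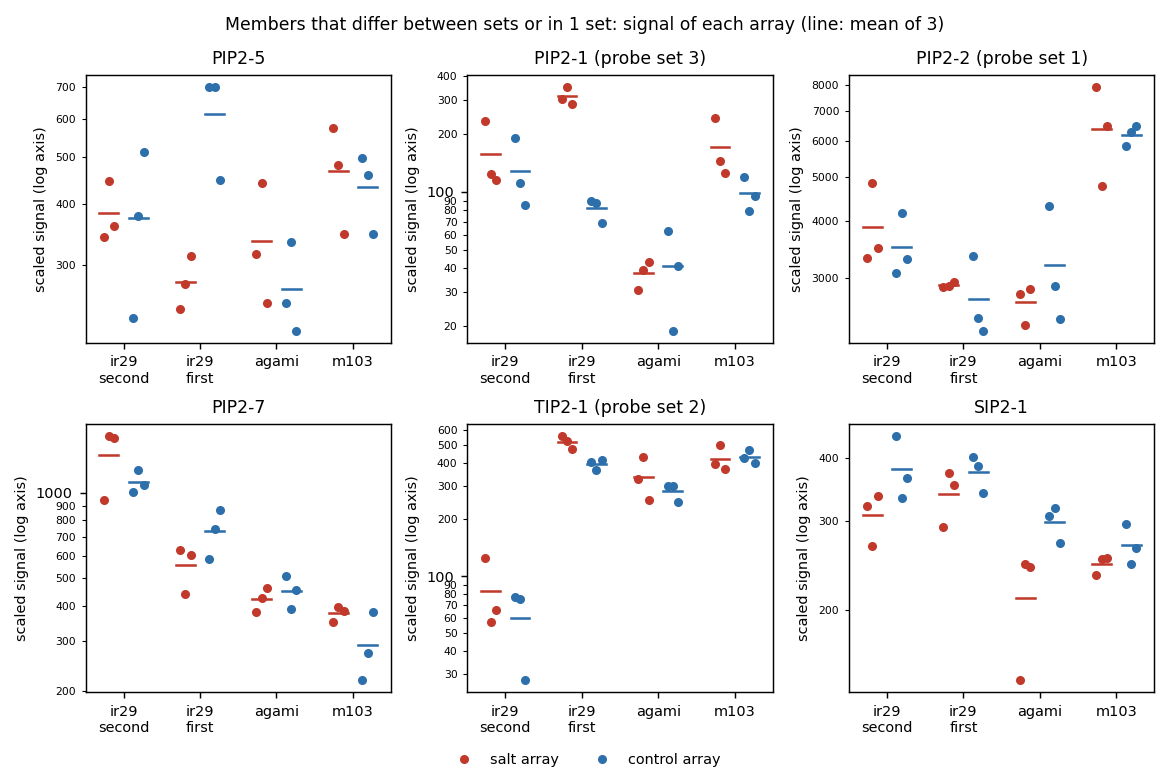
Scaled signal (log axis) of PIP2-5, the third PIP2-1 probe set, the brighter PIP2-2 and TIP2-1 probe sets, PIP2-7 and SIP2-1 in every array, with salt arrays in red on the left and control arrays in blue on the right in each set and lines at the means of 3. All TIP2-1 points of the second ir29-labelled set (27.9 to 125) lie below those of the other sets, and PIP2-5 falls and the PIP2-1 probe set rises in the first ir29-labelled set.

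The other aquaporins gave no call with salt. Over the 15 genes without one, log2 changes in the 4 sets ran from -0.56 to 0.96, the highest being the dimmer PIP2-2 probe set in the second ir29-labelled set. TIP4-2 read 318, 342 and 325 in salt arrays of the first ir29-labelled set and 159, 237 and 258 in control arrays, with no overlap, and did not pass (0.58, SE 0.19, adjusted p = 0.078). PIP2-7 and PIP2-8 were between -0.53 and 0.70 in the 4 sets. TIP3-1 and TIP3-2, channels of protein storage vacuoles in seeds, were dim in this tissue, at 28.6 to 118 and 18.7 to 83.6, and were not called with salt or between the control arrays of sets. In the difference in salt response between the ir29-labelled and the japonica sets no aquaporin passed in limma's test, where 0.212% of all probe sets were called. TIP4-1 had the lowest p there (1.34, SE 0.31 over 24 arrays, adjusted p = 0.071).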

How the data were processed

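The deposited values are intensities on a linear scale for 24 Affymetrix rice arrays, for which the submitters' processing notes name GCOS 1.2; no source used here gives the algorithm, masking or genome build the authors used. The trimmed mean (lowest and highest 2% left out) was 500 in 15 arrays and 58.8 to 116 in the other 9 (5 of m103, 4 of the first ir29-labelled set), so each array was multiplied to 500. The 123 control probe sets were left out, and 34355 of 57258 probe sets were tested, those with a mean log2(signal + 16) above the 40th percentile (a signal of about 27.9). limma 3.58.1 in R 4.3.3 fitted 1 mean per group (8 groups) to all 24 arrays, with the intensity trend, two-sided contrasts and adjustment over all probe sets tested. The code was tested on simulated data. Titles and the treatment field gave the groups, since the description calls all samples unstressed.

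Genes were named through the platform's annotation, which is old, and the RefSeq table of assembly ASM3414082v1. No coordinates are printed, as the array's build is unknown here. Of a gene with several probe sets, the brightest stands for it. Values are given in every array for genes with a probe set called in a set or for the mean of the sets. The aquaporins and the accompanying lists were chosen with earlier results of these data known. From those lists VP1, RCAR5 and RAG were dropped because other names in the table show that they are not the gene meant; no boron transporter, tonoplast pump or plasma membrane proton ATPase was found by the listed symbols. The number of arrays limits the precision. Alternatives were quantile normalization, median centring, a pseudocount of 64, no filter, no trend, only the groups compared, a replicate block, the scale of deposit as a block and each array left out. After seeing the data, 2 fits without arrays that were deposited scaled were added. Replicate arrays correlated at 0.963 to 0.974. Figures were drawn with matplotlib 3.10.9.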

Additional observations from a re-analysis of the deposited data

Results flagged for a closer look

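The salt response of PIP2-4 differed between agami and m103 by -1.79 on the log2 scale in limma's test of the difference (SE 0.33, adjusted p = 0.0076), with signals of 493 to 660 in salt and 626 to 719 in control arrays of agami and 4159 to 5434 in salt and 1311 to 1872 in control arrays of m103. The salt response of NIP2-1 differed between the second and the first ir29-labelled set by -1.51 (SE 0.40, adjusted p = 0.038), which no longer passed under 13 of 20 alternatives. TIP4-1 lay higher in all salt arrays than in all control arrays of the first ir29-labelled set and lower in all salt arrays than in all control arrays of m103; the 2 log2 changes are 2.51 apart, and that difference was not tested.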

How the results depend on the processing

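The count of aquaporin probe sets called with salt kept within 1.5 times its value in m103 (6) and for the mean of the sets (5) under all alternatives, and was 0 in agami under all 14. Where the groups compared were fitted alone, the count was 4 in the first ir29-labelled set (2 with all groups) and 0 in the second (also 2), 2 for the difference between agami and m103 (1), and 0 for that between the second and the first ir29-labelled set (1). That last count was 2 with quantile normalization, 2 with a pseudocount of 64, 0 without the filter and 0 without the intensity trend. With only the 4 unscaled arrays of the first ir29-labelled set, an alternative chosen after seeing the data, 1 probe set was called there. Replicate numbers were not taken as pairs: deviations of same-numbered arrays correlated at -0.0503 to 0.2044, in no set above 0.1 for all 3 pairs, and 12 of 24 arrays correlated best with their own number. With the replicate block, 2 probe sets were called for agami against m103, 3 for the second against the first ir29-labelled set and 1 for the ir29-labelled against the japonica sets (0 without the block). Leaving out 1 array at a time gave counts of 4 to 6 in m103, 1 to 2 in the first ir29-labelled set (1 without control replicate 1 or 2), 1 to 2 in the second (1 without control replicate 1 or 3 or salt replicate 1 or 2), 0 to 0 in agami and 4 to 6 for the mean. It gave 1 to 3 for agami against m103 in salt response (3 without m103 salt replicate 3 or agami control replicate 1), 0 to 2 for the second against the first ir29-labelled set, and 0 to 1 for ir29-labelled against japonica sets. For control arrays it gave 5 to 8 for agami against m103, 3 to 6 for the second against the first set (3 without first-set control replicate 2 or second-set control replicate 3) and 9 to 12 for ir29-labelled against japonica sets. No called value of a named aquaporin changed sign. For the mean and for ir29-labelled against japonica salt responses, fitting only the groups compared was not run, since both use all groups. Dim probe sets, such as the third of PIP2-1 and NIP3-1, are limited by their signal over background, which the deposited intensities do not give.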
